A study of Mus musculus with 6 samples.

Results

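The insulin-like growth factor (IGF) axis of the liver was described through 10 genes taken by name from a gene table of 24411 rows: the hormone gene Igf1, the acid labile subunit gene Igfals, the receptor gene Igf1r, and the binding protein genes Igfbp1 to Igfbp7. The table came from mRNA sequencing of 6 libraries of mouse liver. The mutant samples carried Alb-Cre+/+;Sox9 flox/flox (Sox9 cKO, n = 3), so that Cre recombinase under the albumin promoter removes floxed Sox9 from hepatocytes and from bile duct cells that arise from albumin-expressing precursors. The controls were labelled WT (n = 3), with no Cre or floxed allele named in the label. Ages and sexes are not given in the labels, and C57BL/6J is named among the mice of the study without a link to single samples. Whether the libraries stand for different animals is not stated in the labels, and the p-values describe only how far these 6 libraries scatter.

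IGF1 in blood is made mostly by hepatocytes under growth hormone, which acts through its receptor, JAK2 and STAT5B. Most circulating IGF1 travels in a ternary complex with IGFBP-3 or IGFBP-5 and the acid labile subunit, which keeps it in the vessels, while the smaller binding proteins carry the rest and mostly limit its access to the receptor. Hepatocytes themselves make very little IGF1 receptor. SOX9 is a transcription factor of bile duct cells.

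None of the 9 tested genes passed the test between Sox9 cKO and control livers, and Igf1r was too low for the reported fit. Igf1 and the 2 most abundant binding protein genes, Igfbp4 and Igfbp2, stood within 10% of the control mean in Sox9 cKO livers. Igfbp1, Igfbp3, Igfbp7 and Igf1r were lower in every Sox9 cKO library than in every control library, at 16.7%, 47.9%, 66.3% and 39.4% of the control mean. Their limma adjusted p-values were above 0.05, that of Igf1r in a separate fit without the filter on low values. Igfbp4, at 91.3% of the control mean, did not overlap between the groups either. Of all tested genes 33.7% were lower in Sox9 cKO without overlap. Levels are given in TPM, a transcript abundance scaled for transcript length and library total, so that genes can be compared within a library. Each fold change is the Sox9 cKO mean less the control mean of log2(TPM + 0.5), which understates the change of low genes. It was fitted with limma for the 12539 genes that averaged 0.5 TPM or more, and Benjamini-Hochberg adjustment ran over all 12539.

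By limma 0 of the 9 tested genes were higher and 0 were lower, against 0.821% and 8.76% of all tested genes (9.59% in either direction). At an unadjusted p under 0.05 there were 3, Igfbp1, Igfbp3 and Igfbp7, against 29.8% of all tested genes. Igf1r averaged 0.307 TPM over the 6 libraries and was left out by the filter on low values. The groups did not overlap, with Sox9 cKO lower, for 4 of the 9 tested genes and for Igf1r, against 33.7% of all tested genes, and no member was higher without overlap, against 3.79% (37.5% in either direction). The median log2 fold change of the 9 genes was -0.27, and that of all tested genes was -0.24. Median centring of the libraries moved the median of all genes to 0.04, and the values below are to be read against that shift.

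Several facts of the 6 libraries touch every comparison. Sox9, the targeted gene, was at 0.19, 0.40 and 0.68 TPM in Sox9 cKO, against 1.69, 1.43 and 1.43 TPM in controls (log2 fold change -1.16, limma adjusted p = 0.0323). That call was lost under 10 of 17 alternatives, among them each one that left out a control. The female marker Xist reached no more than 0.02 TPM in Sox9 cKO and 0.01 TPM in control replicate 3, whereas control replicates 1 and 2 had 114 and 123 TPM, so the sexes of the groups were not balanced. Of the genes known for sex-biased expression in mouse liver, 13 of 16 male-biased genes were called higher and 12 of 17 female-biased genes were called lower in Sox9 cKO, and leaving out 1 library at a time gave 9 to 14 higher and 5 to 11 lower, the 5 without control replicate 1 or 2. Control replicate 3 lay with the other controls for several of these genes although it lacked Xist and had the Y-linked gene Eif2s3y at 51.6 TPM. Cyp4a12a, a male-biased cytochrome P450, was at 87.9, 209.7 and 241 TPM in Sox9 cKO, against 0.38, 0.12 and 0.06 TPM in controls. Sult2a1, a female-biased sulfotransferase, was at 6.11, 0.39 and 0 TPM in Sox9 cKO, against 825, 879.8 and 842 TPM in controls. Both differences were thus present between libraries without Xist. For other female-biased genes control replicate 3 lay far below control replicates 1 and 2. Cyp3a41a was at 714, 1022 and 4.11 TPM in controls and at 2.20 to 2.60 TPM in Sox9 cKO. Cyp3a16 was at 162, 211 and 6.53 TPM in controls and at 0.16 to 0.20 TPM in Sox9 cKO. Of 9 tested fetal liver and imprinted growth genes 5 were called lower, with a summed level of 10.3 to 13.6 TPM in Sox9 cKO, against 73.7 to 227 TPM in controls. Most of the control sum was H19 alone, at 44.8, 79.1 and 194 TPM in controls and at most 0.36 TPM in Sox9 cKO. Without control replicate 1, 2 or 3 the lower fetal genes numbered 2, 1 and 1. With a term for Xist in the fit the calls over all genes numbered 21 higher and 49 lower, instead of 103 and 1099. Of these lists it left 7 male-biased genes higher, 4 female-biased genes lower and 1 fetal gene lower, and results below are given with that term where it ends a call. Only control replicates 1 and 2 were marked by Xist, so the fold changes with that term are those against control replicate 3 alone. For a call lost with it, a smaller difference and the wider error of a single control cannot be told apart. The part of developmental stage was not tested. Sequencing depth is unknown, because TPM does not keep it.

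**Figure D1:**
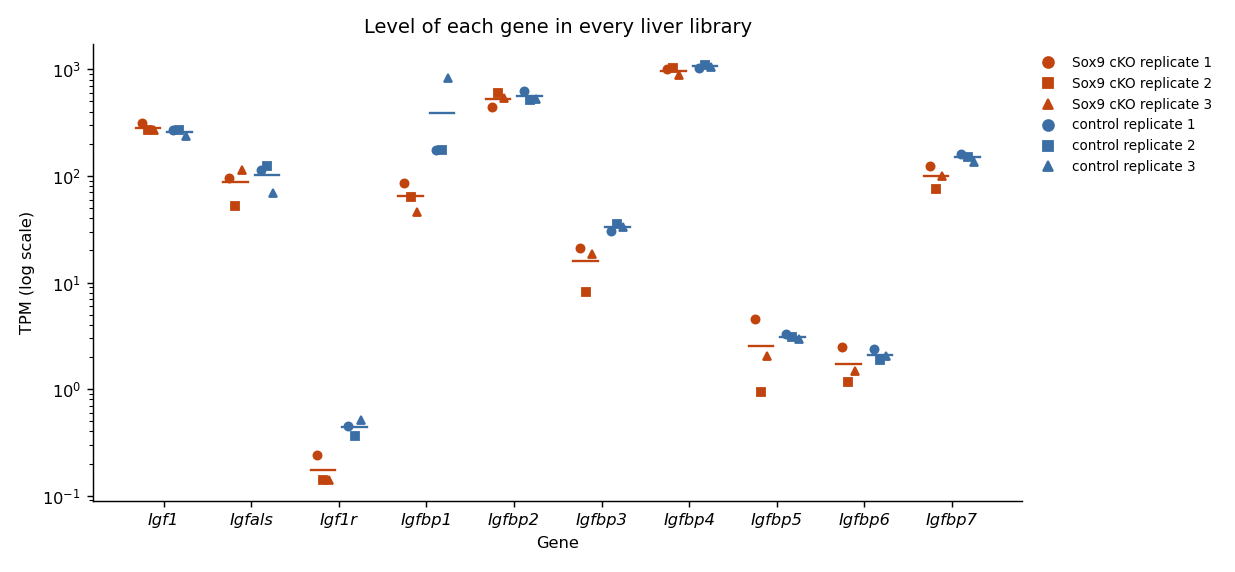
TPM of the 10 genes (x axis) on a log scale (y axis) in 3 Sox9 cKO libraries and 3 control libraries, with a line at each group's mean. Igf1, Igfbp2 and Igfbp4 lie at like levels in both groups, Igfbp1 of control replicate 3 stands at 822 TPM, and Sox9 cKO replicate 2 is the lowest point for Igfals, Igfbp3, Igfbp5, Igfbp6 and Igfbp7.

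The ligand gene Igf1 (chromosome 10, 87858265 to 87937042, plus strand, mm10) was at 311, 273 and 268 TPM in Sox9 cKO livers, against 270.1, 269 and 238 TPM in control livers. The groups overlapped, with Sox9 cKO replicate 1 highest and control replicate 3 lowest. The means were 284 ± 23.9 TPM in Sox9 cKO and 259 ± 18.3 TPM in controls (SD, n = 3 each), and its mean over all 6 libraries ranked 538th among the 12539 tested genes. That is a log2 fold change of 0.13 (SE 0.13, limma adjusted p = 0.512) with a 95% confidence interval of -0.16 to 0.42. Igf1 was the only tested member with a fold change above 0, and 87.8% of all tested genes had a lower value. After centring each library on its median the value was 0.41 (limma adjusted p = 0.124), still short of the threshold.

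The profile of Igf1 over the 6 libraries was compared with those of 7839 other genes of at least 5 TPM. The measure was the root mean square difference of log2 values centred on each gene's mean, which had a median of 0.258 over these genes. The most alike were Rp9 (0.0237), Aes (0.0242), a corepressor of the Groucho family, and Vapa (0.0358), a protein of endoplasmic reticulum contact sites. None of the 3 passed the test either, with log2 fold changes of 0.10, 0.15 and 0.12 (limma adjusted p = 0.626, 0.485 and 0.579).

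Igfals (chromosome 17, 24865997 to 24882010, plus strand) encodes the acid labile subunit, a leucine-rich protein of hepatocytes that growth hormone induces. Its level was 95.7, 52.0 and 114 TPM in Sox9 cKO, against 113, 123 and 69.7 TPM in controls. The groups overlapped widely, with Sox9 cKO replicate 2 lowest. Its log2 fold change of -0.26 (SE 0.32, limma adjusted p = 0.624) had a 95% confidence interval of -1.0 to 0.49. In 1 of its 3 annotated RefSeq promoters the 250 bases before the start (chr17:24877981-24878230, plus strand, GRCm38.p6) hold a match to the STAT5 motif TTCNNNGAA close to the start. The window is shown because STAT5 is the known route from growth hormone to this gene, with the match in capitals, at bases -58 to -50 counted from the start.
Igfals: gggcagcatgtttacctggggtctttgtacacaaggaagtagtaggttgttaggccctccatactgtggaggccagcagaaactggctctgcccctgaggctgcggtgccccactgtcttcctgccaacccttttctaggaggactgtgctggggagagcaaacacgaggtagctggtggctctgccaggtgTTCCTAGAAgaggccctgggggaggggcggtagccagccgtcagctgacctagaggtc
This motif, searched on both strands, which read alike, occurs in 7.02% of 32851 such windows of all genes, and in 2 of the 13 windows of the 10 members, both of Igfals. A SOX motif, AACAAT on either strand, occurs in 9.42% of all windows and in 0 of the 13. A match to letters is not a binding site, and the absence of one in 250 bases leaves the rest of the gene unread.

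Igf1r (chromosome 7, 67952827 to 68233668, plus strand), the tyrosine kinase receptor of IGF1, was close to the lower end of what the table lists. It was at 0.24, 0.14 and 0.14 TPM in Sox9 cKO, against 0.45, 0.36 and 0.51 TPM in controls. The groups did not overlap. In the fit without a filter its log2 value was -0.48 (SE 0.12, limma adjusted p = 0.0629), a value that the added 0.5 TPM holds close to 0 at such levels. Igf1 transcripts outnumbered those of Igf1r by 1297 to 1948 times in Sox9 cKO and by 466 to 747 times in controls. In whole liver, fewer receptor-bearing cells and less receptor RNA per cell cannot be told apart.

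Igfbp4 (chromosome 11, 99041244 to 99054392, plus strand) encodes an inhibitory binding protein that the protease PAPP-A cleaves to release IGF1, and it was the most abundant member. Its level was 1009.7, 1033 and 882 TPM in Sox9 cKO, against 1035, 1106 and 1063 TPM in controls. Every Sox9 cKO value lay below every control value, yet the means differed little, at 975 ± 81.3 TPM in Sox9 cKO and 1068 ± 35.9 TPM in controls (SD, n = 3 each). The fitted log2 value was -0.13 (SE 0.13, limma adjusted p = 0.530) with a 95% confidence interval of -0.44 to 0.18. That lies above the median of all tested genes, and median centring turned it to 0.14.

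Igfbp2 (chromosome 1, 72824503 to 72852474, plus strand), a major binding protein of hepatocytes and of fetal serum, followed. It was at 443, 596 and 535 TPM in Sox9 cKO, against 634, 517 and 531 TPM in controls. The ranges overlapped in both directions. It had a log2 fold change of -0.10 (SE 0.16, limma adjusted p = 0.707), with a 95% confidence interval of -0.47 to 0.27. The ratio of Igfbp4 to Igfbp2, which does not depend on the scaling between libraries, was 1.65 to 2.28 in Sox9 cKO and 1.63 to 2.14 in controls.

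**Figure D2:**
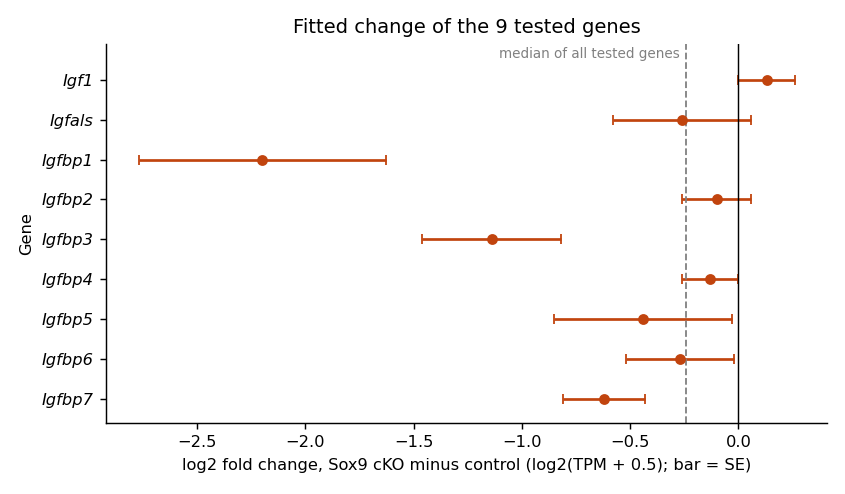
Fitted log2 fold change (x axis, Sox9 cKO minus control) of the 9 tested genes (y axis) with bars of 1 SE, and the median of all tested genes at -0.24 as a dashed line. Igfbp1 at -2.20, Igfbp3 at -1.14 and Igfbp7 at -0.62 stand left of that line, and the other genes lie within 1 SE of it or to its right, with Igf1 at 0.13.

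Igfbp1 encodes a binding protein of hepatocytes whose transcription insulin represses through FOXO factors, so that it is high in fasting and low after feeding. Its level was 86.6, 63.95 and 45.6 TPM in Sox9 cKO, against 176, 174 and 822 TPM in controls. All 3 Sox9 cKO libraries were lower than all 3 controls, and control replicate 3 stood far above the other controls. The means were 65.4 ± 20.5 TPM in Sox9 cKO and 391 ± 374 TPM in controls (SD, n = 3 each). Its log2 fold change of -2.20 (SE 0.57) missed the threshold (limma adjusted p = 0.0517), with a 95% confidence interval of -3.53 to -0.88, and only 0.494% of tested genes had a lower value.

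The spread among the controls bore on this result. Without control replicate 3 the log2 fold change of Igfbp1 was smaller and passed (-1.46, SE 0.26, limma adjusted p = 0.0457), and with a sex-marker term it was larger and passed (-3.69, SE 0.33, limma adjusted p = 0.0105). The value of -3.69 with that term is the contrast with control replicate 3 alone. Its error rests on the spread of the Sox9 cKO libraries and of control replicates 1 and 2. With control replicate 3 as the sole control in the fit it was also -3.69, with the lone control assumed to vary like the other group. Over the 18 alternatives the adjusted p ran between 0.0105 and 0.120. Pck1, a gluconeogenic gene that fasting raises as well, was at 1732, 1783 and 1505 TPM in Sox9 cKO, against 1531, 1828 and 3071 TPM in controls. Pck1 was thus highest in the library with the most Igfbp1. G6pc, another gluconeogenic gene, was lowest in that library, at 206 TPM. Control replicates 1 and 2 had 328 and 240 TPM of G6pc, and Sox9 cKO had 302, 789 and 497 TPM. The feeding state of the animals is not given in the labels. Its part in the result was not tested.

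Igfbp3 encodes the main carrier of IGF1 in the ternary complex, and in rat liver it is made mostly by non-parenchymal cells, not by hepatocytes. Its level was 21.0, 8.19 and 18.5 TPM in Sox9 cKO, against 30.7, 35.5 and 33.3 TPM in controls. The groups did not overlap, and the controls were close together while Sox9 cKO replicate 2 stood below the other 2 Sox9 cKO libraries. The means were 15.9 ± 6.78 TPM in Sox9 cKO and 33.2 ± 2.41 TPM in controls (SD, n = 3 each). The log2 fold change of -1.14 (SE 0.32) missed the threshold (limma adjusted p = 0.0601), with a 95% confidence interval of -1.87 to -0.41. Without Sox9 cKO replicate 2 it was smaller, with less error, and passed (-0.74, SE 0.12, limma adjusted p = 0.0274). With array weights it passed too (-0.84, limma adjusted p = 0.0233), whereas median centring gave an adjusted p of 0.137, and the adjusted p over the 18 alternatives ran between 0.0233 and 0.463.

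Igfbp1 and Igfbp3 are neighbours that point toward each other on chromosome 11, at 7197782 to 7202546 on the plus strand and 7206086 to 7213923 on the minus strand. Their ends lie 3539 bases apart with no annotated gene between. The 250 bases before each RefSeq start are shown for this pair because both genes were lower without overlap (GRCm38.p6, chr11:7197537-7197786, plus strand, and chr11:7213924-7214173, minus strand). Capitals mark matches to CAAAANA on either strand, the core of the insulin response element.
Igfbp1: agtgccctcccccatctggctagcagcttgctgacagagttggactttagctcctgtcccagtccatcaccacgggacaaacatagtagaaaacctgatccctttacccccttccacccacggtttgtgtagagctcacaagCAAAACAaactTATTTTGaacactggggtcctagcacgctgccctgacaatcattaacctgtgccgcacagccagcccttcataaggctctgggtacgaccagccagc
Igfbp3: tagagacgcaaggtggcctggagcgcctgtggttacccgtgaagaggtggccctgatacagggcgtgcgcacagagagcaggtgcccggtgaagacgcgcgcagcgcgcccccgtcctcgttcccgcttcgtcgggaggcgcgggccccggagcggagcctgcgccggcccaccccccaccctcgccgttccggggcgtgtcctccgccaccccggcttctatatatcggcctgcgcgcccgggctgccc
The Igfbp1 window holds an inverted pair of matches, at bases -108 to -102 and -97 to -91 from the start, as in the insulin response element known for this gene. The Igfbp3 window holds none, and it is richer in G and C, at 73.2% against 53.2% for Igfbp1. Of all 32851 windows 16.9% hold at least 1 match, and of the 13 member windows only that of Igfbp1 does. Igfbp2 and Igfbp5 form a like pair on chromosome 1, with 5457 bases between their ends, and in that pair the groups overlapped for both genes.

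The genes with the most similar profiles were also looked up for Igfbp1 and Igfbp3, a choice made after their values had been seen. For Igfbp1 the most alike was Lpl, lipoprotein lipase, with a difference of 0.467 against a median of 1.31 over all candidates. Lpl was at 41.7, 29.3 and 37.3 TPM in Sox9 cKO, against 124, 121 and 261 TPM in controls, and it was called lower (log2 fold change -2.13, limma adjusted p = 0.0100), also with the sex-marker term (-2.85, limma adjusted p = 0.0065). Nipal1 (0.473), which is also in the list of female-biased genes, and Il1rn (0.553) followed and were called lower as well. Genes chosen for a profile like that of Igfbp1 share its direction by that choice, so these calls lend it no support. For Igfbp3 the most alike were Rnase4 (0.103), Clec1b (0.108) and Dcn (0.123), a proteoglycan gene that is also in the stellate cell and fibroblast list, against a median of 0.658.

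Igfbp7 (chromosome 5, 77349240 to 77408041, minus strand) encodes a secreted protein of vessel walls and stromal cells that binds IGFs weakly. Its level was 123, 75.3 and 99.6 TPM in Sox9 cKO, against 161, 152 and 136 TPM in controls. The groups did not overlap, and Sox9 cKO replicate 2 was again lowest. Its log2 fold change of -0.62 (SE 0.19) missed the threshold (limma adjusted p = 0.0744), with a 95% confidence interval of -1.05 to -0.18, and it passed under none of the 18 alternatives (limma adjusted p = 0.0515 to 0.595). Exons of Igfbp7 overlap those of Polr2b on the opposite strand, and whether the authors counted by strand is not given in the sources used here, so reads of the overlap are uncertain.

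**Figure D3:**
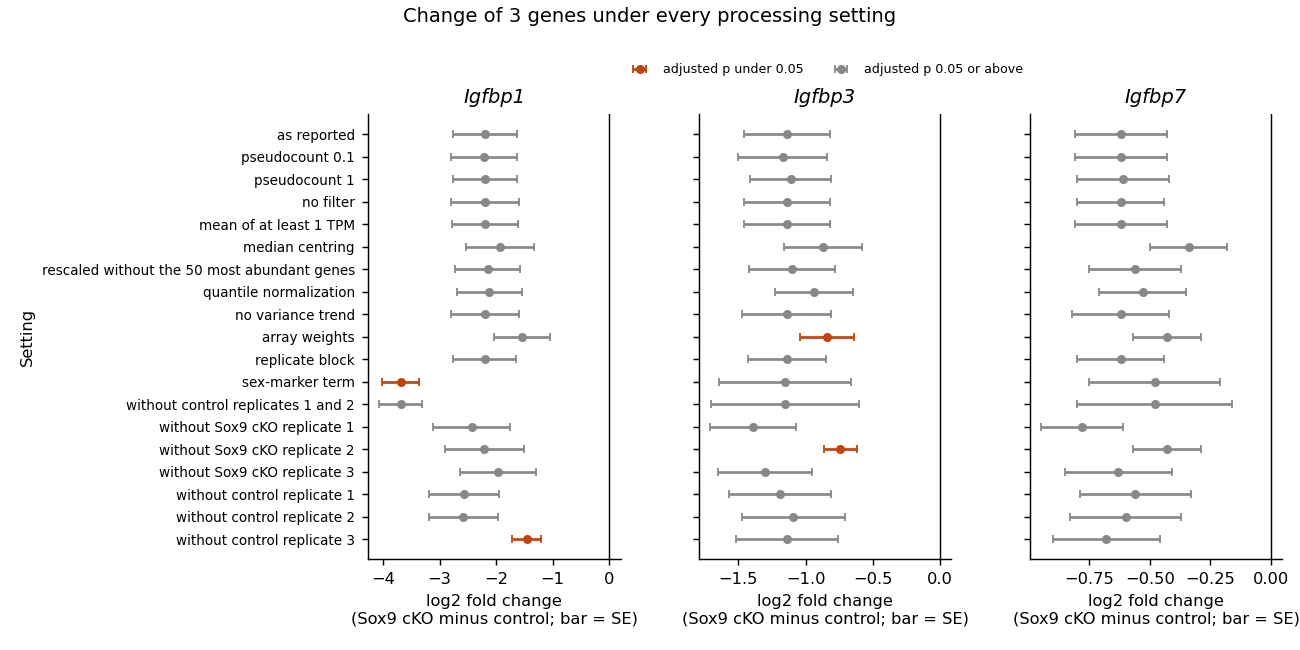
Log2 fold change with its SE (x axis) of Igfbp1, Igfbp3 and Igfbp7 under the reported fit and 18 other settings (y axis), in colour where the adjusted p was under 0.05. Every value is below 0, and Igfbp1 and Igfbp3 each passed under 2 settings while Igfbp7 passed under none.

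Igfbp5 (chromosome 1, 72857932 to 72874884, minus strand), whose product can also enter the ternary complex, was low in whole liver. It was at 4.58, 0.94 and 2.04 TPM in Sox9 cKO, against 3.27, 3.08 and 2.93 TPM in controls. Controls varied by 5.51% of their mean (coefficient of variation) and Sox9 cKO libraries by 74.1%, the widest spread of any member in that group. Igfbp6 (chromosome 15, 102144362 to 102149511, plus strand), a binding protein with a preference for IGF2, was at 2.50, 1.17 and 1.48 TPM in Sox9 cKO, against 2.38, 1.87 and 2.06 TPM in controls. Both overlapped between the groups, with log2 fold changes of -0.44 (SE 0.41, limma adjusted p = 0.498) and -0.27 (SE 0.25, limma adjusted p = 0.492). Exact two-sided permutation tests on single genes gave p = 0.1 for the 5 members without overlap, the smallest value that 3 against 3 libraries allow, and p = 0.3 to 0.6 for the others.

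The order of levels was alike in both groups except for Igfbp1. In Sox9 cKO it ran Igfbp4, Igfbp2, Igf1, Igfbp7, Igfals, Igfbp1, Igfbp3, Igfbp5, Igfbp6 and Igf1r, and the ranges of neighbours overlapped for Igfbp7 with Igfals, Igfals with Igfbp1, and Igfbp5 with Igfbp6. In controls Igfbp1 stood between Igfbp2 and Igf1 by its mean, and its range overlapped both of them. No other neighbours overlapped in controls.

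Within a library the summed level of the 7 Igfbp genes was 1584 to 1779 TPM in Sox9 cKO and 1990.3 to 2590 TPM in controls. Igfbp1 made up 2.88% to 5.12% of that sum in Sox9 cKO, against 8.60%, 8.76% and 31.8% in controls. Igfbp4 made up 55.7% to 59.8% in Sox9 cKO and 41.0% to 55.6% in controls. The share of Igfbp3 was 0.460% to 1.24% in Sox9 cKO and 1.29% to 1.78% in controls. For all 3 genes the groups did not overlap, while the shares of Igfbp2, Igfbp5, Igfbp6 and Igfbp7 overlapped. The shares of a library add up to a fixed total, so a smaller share of Igfbp1 raises the others. The higher share of Igfbp4 is thus no separate rise. In TPM Igfbp4 was lower, at 882 to 1033 TPM in Sox9 cKO and 1035 to 1106 TPM in controls.

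Ratios between the parts of the ternary complex do not depend on the scaling between libraries. Igf1 to Igfbp3 was 14.8, 33.3 and 14.5 in Sox9 cKO, against 8.80, 7.57 and 7.14 in controls. Igfals to Igfbp3 was 4.56 to 6.35 in Sox9 cKO and 2.09 to 3.69 in controls. Neither ratio overlapped between the groups, whereas Igf1 to Igfals did, at 2.35 to 5.24 in Sox9 cKO and 2.18 to 3.41 in controls. Igf1 to the summed Igfbp genes was 0.153 to 0.184 in Sox9 cKO and 0.0918 to 0.135 in controls. A ratio of this kind shows unequal levels, not which gene differs, and these were not tested.

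**Figure D4:**
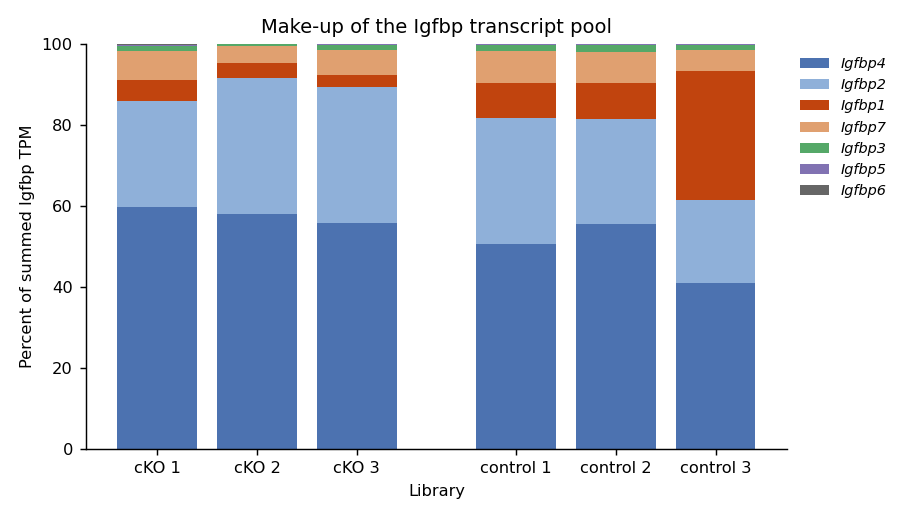
Share of each gene in the summed TPM of the 7 Igfbp genes (y axis, percent) in each library (x axis), Sox9 cKO left and controls right. Igfbp1 takes 2.88% to 5.12% in Sox9 cKO libraries and 8.60% to 31.8% in controls, the highest in control replicate 3.

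Sox9 cKO replicate 2 was the lowest of all 6 libraries for 5 members alone, and tied for the lowest with Sox9 cKO replicate 3 for Igf1r. In the same library Socs2 and Cish, which growth hormone induces through STAT5, were at 1.48 and 1.15 TPM, against 15.2 to 58.6 TPM in the other 2 Sox9 cKO libraries and 5.59 to 44.2 TPM in controls over both genes. Igf1 in that library was at 273 TPM, inside the range of the others. The part of this library in the fold changes is given above for Igfbp3, where its removal moved the value to -0.74.

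Markers of several non-parenchymal cell types were lower in Sox9 cKO, and so were the uncalled Igfbp3 and Igfbp7. Whether they vary together over the libraries was not tested. Over all tested genes 8.76% were called lower, and the median log2 fold change was -0.24. Of 19 tested markers of stellate cells and fibroblasts 10 were called lower and 0 higher, with a summed level of 194 to 353 TPM in Sox9 cKO and 518 to 563 TPM in controls. Of 14 Kupffer cell and macrophage markers 10 were called lower, with 260.3 to 579 TPM in Sox9 cKO and 774 to 1312 TPM in controls. Of 16 endothelial markers 4 were called lower, with 179.5 to 256 TPM in Sox9 cKO and 304 to 331 TPM in controls. Leukocyte markers had 4 of 9 lower (7.97 to 21.5 TPM in Sox9 cKO and 53.5 to 89.5 TPM in controls), and cholangiocyte markers 3 of 9 (72.6 to 90.2 TPM in Sox9 cKO and 99.7 to 161 TPM in controls). The 3 cholangiocyte calls were Tspan8, Elf3 and Sox9, the last being the gene targeted by design. Most of the cholangiocyte sum was Spp1, at 40.5 to 62.6 TPM in Sox9 cKO and 58.2 to 106 TPM in controls. Spp1 overlapped between the groups and was not called. With the sex-marker term the lower calls numbered 0 for stellate cells and fibroblasts, 1 for macrophages and 0 for each of the other 3 lists, and leaving out 1 library at a time gave 1 to 10, 3 to 13, 0 to 2, 0 to 5 and 2 to 3 lower calls in the order of the lists above. Igfbp3 and Igfbp7 with that term had log2 fold changes of -1.15 and -0.48 (limma adjusted p = 0.285 and 0.411). The sex-marker term leaves control replicate 3 as the only control in the contrast. With it the median log2 fold changes of the lists, in the order above, were -0.96, -1.08, -0.60, -0.92 and -0.60. Without it they were -1.02, -1.54, -0.49, -0.98 and -0.64. Median centring left 4, 3, 0, 1 and 2 lower calls in the same order, and quantile normalization left 3, 3, 0, 1 and 2. The list medians with median centring were -0.74, -1.27, -0.21, -0.70 and -0.37, against 0.04 for all tested genes. No marker of these lists was at 0 in every library. Their part in the lower Igfbp3 and Igfbp7 was not tested, and fewer cells of a type cannot be told apart from less RNA per cell.

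Markers of hepatocytes, the source of Igf1, Igfals, Igfbp1 and Igfbp2, had 0 of 12 called in either direction by limma (2 at an unadjusted p under 0.05). Their median log2 fold change was -0.25, against -0.24 for all tested genes. Their sum was 114943 to 131105 TPM in Sox9 cKO and 150160 to 155703 TPM in controls. Most of that sum was Alb alone, at 74907 to 82381 TPM in Sox9 cKO and 100900 to 110461 TPM in controls (limma adjusted p = 0.330). Alb and Fgb were lower without overlap, and the other hepatocyte markers overlapped between the groups. Mesothelial markers had 0 of 4 called (0 at an unadjusted p under 0.05), with 4.55 to 7.97 TPM in Sox9 cKO and 5.16 to 7.63 TPM in controls.

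Upstream of Igf1, the growth hormone receptor gene Ghr was at 327, 260.1 and 361 TPM in Sox9 cKO, against 299.8, 298 and 284 TPM in controls (log2 fold change 0.09, limma adjusted p = 0.717). Of 12 genes of the growth hormone pathway 4 were called lower and 0 higher, with a median of -0.67. Over all tested genes 8.76% were called lower, with a median of -0.24. Under median centring and under quantile normalization the median of the 12 was -0.39, with 1 lower call each. Stat5b, the main STAT of this pathway in liver, fell to 16.2, 11.4 and 14.6 TPM in Sox9 cKO, against 25.3, 23.4 and 20.8 TPM in controls (-0.71, SE 0.16, limma adjusted p = 0.0370). Stat3, which serves cytokines of the interleukin 6 family as well, fell by 1.0 on the log2 scale (limma adjusted p = 0.0183). Cux2 (-4.15) and Prlr (-1.43), the others called, are also in the list of female-biased genes. With the sex-marker term Cux2 alone of the 12 was called (limma adjusted p = 0.0277), and leaving out 1 library gave 1 to 3 lower calls, with 1 without any one of the controls. Socs2, a feedback inhibitor, had a log2 fold change of -0.91 with an SE of 1.09 (limma adjusted p = 0.610).

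Beside the members, Igf2, the fetal ligand, was at 0.05 to 0.11 TPM in Sox9 cKO and 0.12 to 0.31 TPM in controls and was not tested. Igf2r, the receptor that clears IGF2, was at 8.60, 6.33 and 9.21 TPM in Sox9 cKO, against 12.8, 13.0 and 11.0 TPM in controls (log2 fold change -0.59, limma adjusted p = 0.0692). Insr, the insulin receptor gene, was at 22.6, 14.2 and 25.5 TPM in Sox9 cKO, against 30.2, 29.4 and 30.2 TPM in controls (-0.55, limma adjusted p = 0.126). Neither overlapped between groups and neither passed. Of 9 genes of IGFBP proteases and their inhibitors 2 were abundant enough to test and 0 passed by limma (1 at an unadjusted p under 0.05). The PAPP-A gene Pappa reached at most 0.03 TPM, and Pappa2 was listed at 0 in all.

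Of 20 genes of signalling below the insulin and IGF1 receptors 4 were called lower and 0 higher, with a median of -0.34. Over all tested genes 8.76% were called lower, with a median of -0.24. Median centring brought the median of the 20 to -0.06 with 2 lower calls, and quantile normalization to -0.05 with 1. Irs2, a docking protein of both receptors that insulin represses as it does Igfbp1, fell to 1.37, 1.74 and 1.37 TPM in Sox9 cKO, against 6.92, 4.41 and 8.63 TPM in controls (log2 fold change -1.80, SE 0.25, limma adjusted p = 0.00935). It was highest in control replicate 3, as Igfbp1 was. Grb10, an adaptor that restrains both receptors, fell by 1.35 on the log2 scale (limma adjusted p = 0.0224). Ptpn1, a phosphatase of the insulin receptor, fell by 0.63 (limma adjusted p = 0.0468) and the kinase gene Akt1 by 0.53 (limma adjusted p = 0.0484), both close to the threshold. With the sex-marker term Irs2 alone was called (-2.20, limma adjusted p = 0.0473), leaving out 1 library gave 0 to 3 lower calls, and without control replicate 1 there were 0. Irs1, Foxo1 and Akt2 had log2 fold changes of -0.37, -0.31 and -0.22 and did not pass (limma adjusted p = 0.275, 0.439 and 0.236).

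**Figure D5:**
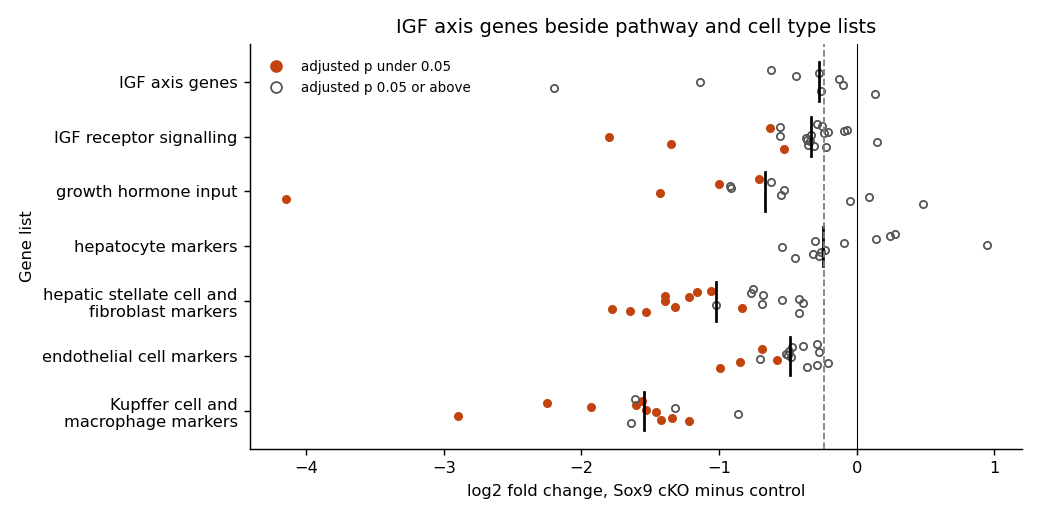
Log2 fold change (x axis, Sox9 cKO minus control) of each tested gene of the IGF axis and of 6 other lists (y axis), with filled points for genes with an adjusted p under 0.05, a bar at each list's median and a dashed line at the median of all tested genes. No IGF axis gene is filled, its median of -0.27 lies beside the dashed line at -0.24, and the stellate cell and macrophage lists lie further left, at -1.02 and -1.54.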

How the data were processed

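Per the labels' protocols, total RNA of liver was made into stranded mRNA libraries and read as single-end 75 nt reads. The authors deposited 1 table of TPM, 1 column per library and not pooled, made with Trim Galore 0.5.0, cutadapt 1.16, STAR 2.6.0a on mm10 and RSEM 1.3.1, per the submitters' processing notes. Neither annotation nor strand setting is given in the sources used here. TPM scales each library to a fixed sum, so a change in abundant genes shifts all others. Columns were matched to samples by library number. Genes averaging 0.5 TPM or more were fitted as log2(TPM + 0.5) in limma 3.58.1 under R 4.3.3. The fit held the group alone, used a variance trend, and made two-sided calls at an adjusted p under 0.05. The model was tested on simulated data.

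The members, gene lists and settings were chosen with earlier results of these data known. Named genes were the members, called genes of the pathway lists (at most 4 a list) and 6 genes fixed by name. Label checks and the 3 genes with profiles closest to Igf1 were named as well. Pck1, G6pc, Cyp4a12a, Sult2a1, Cyp3a41a and Cyp3a16 were chosen after their values were seen. So were Socs2 with Cish by library, Irs1, Foxo1, Akt2, Pappa, Pappa2 and the genes most like Igfbp1 and Igfbp3. Positions are from GENCODE M21 (GRCm38, the assembly of mm10) and promoters from RefSeq (GRCm38.p6); all 10 members matched in both. Figures were drawn with matplotlib 3.10.9.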

Additional observations from a re-analysis of the deposited data

How the results depend on the processing

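Of the 9 tested members, 0 were called higher under any of the 18 alternatives by limma. 1 was called lower with array weights (Igfbp3) and 1 with a sex-marker term (Igfbp1), and leaving out 1 library gave 0 to 1, namely Igfbp3 without Sox9 cKO replicate 2 and Igfbp1 without control replicate 3. Igf1 kept a value above 0, and Igfbp1, Igfbp3 and Igfbp7 values below 0, under all 18. Uncalled values changed sign for Igfals with median centring (0.02), a term for Xist (0.25), with control replicate 3 as sole control (0.25) and without Sox9 cKO replicate 2 (0.08, with -0.51 to 0.08 over libraries left out), for Igfbp2 with median centring (0.17) and without Sox9 cKO replicate 1 (0.02, range -0.20 to 0.02), for Igfbp4 with median centring (0.14), for Igfbp5 with quantile normalization (0.02), array weights (0.14) and without Sox9 cKO replicate 2 (0.00, range -0.91 to 0.00), and for Igfbp6 with median centring (0.00), quantile normalization (0.22) and array weights (0.05). So did Irs1 with quantile normalization (0.03), Akt2 with median centring (0.06), Ghr without Sox9 cKO replicate 3 (-0.01, range -0.01 to 0.22) and Socs2 without Sox9 cKO replicate 2 (0.53, range -1.92 to 0.53). Of the called pathway genes, Cux2 passed under 18 of 18 alternatives, Irs2 under 16, Grb10 under 12, Stat3 and Igf2bp3 under 11, Prlr under 7, Stat5b under 6, Ptpn1 under 5 and Akt1 under 3. These settings for genes beside the members were added after seeing the data. The cause was not tested. Over all tested genes, 103 were higher and 1099 lower in the reported fit. Lower genes numbered 256 with median centring, 215 with quantile normalization and 725 after rescaling without the 50 most abundant genes, and made up 63.7%, 64.2% and 87.6% of calls, against 91.4% as reported. Array weights gave 252 higher and 2312 lower, the sex-marker term 21 and 49, the fit without control replicates 1 and 2 gave 9 and 18, and leaving out 1 library 32 to 107 higher and 104 to 1003 lower. Same-numbered libraries did not deviate together (correlations of -0.0446, 0.00354 and -0.0269). No Sox9 cKO library correlated best with the control of its own number. The numbers thus gave no sign of a pairing, though so few libraries cannot exclude it. A replicate block gave 85 higher and 563 lower genes, and called 0 members higher and 0 lower. Depth is unknown, which limits Igf1r, Igfbp5 and Igfbp6 most.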

Other observations

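Other secreted proteins share the N-terminal domain of the IGF binding proteins, among them the matricellular CCN family. Of 9 such genes 5 were abundant enough to test and 0 were called in either direction by limma (0 at an unadjusted p under 0.05), with a median log2 fold change of -0.33, and 1 was called lower with the sex-marker term. Cyr61, a target of the YAP pathway, was at 9.11, 4.07 and 12.8 TPM in Sox9 cKO, against 16.8, 10.3 and 5.68 TPM in controls. Esm1, an endothelial proteoglycan gene, was at 0.21 to 0.71 TPM in Sox9 cKO and at 0.28 to 9.71 TPM in controls, with the highest value in control replicate 3. Both were named after their values were seen.

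Among the 3 genes of IGF2 mRNA binding proteins, RNA-binding proteins of fetal tissue, Igf2bp3 fell to 2.28, 2.85 and 1.3 TPM in Sox9 cKO, against 5.65, 8.09 and 6.17 TPM in controls (log2 fold change -1.46, SE 0.26, limma adjusted p = 0.0196), a call that was lost with the sex-marker term (-1.38, limma adjusted p = 0.158) and when control replicate 1, 2 or 3 was left out. Igf2bp2 did not pass (limma adjusted p = 0.648), and Igf2bp1 was at 0.03 TPM or less in every library. H19, the imprinted RNA beside Igf2, was at 0.36, 0.05 and 0.07 TPM in Sox9 cKO, against 44.8, 79.1 and 194 TPM in controls, while Igf2 itself did not exceed 0.31 TPM.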
